A study of Mus musculus with 8 samples.

Results

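Glucocorticoid signalling inside a cell depends on enzymes that switch the hormone on or off, on a pair of receptors and on the genes those receptors control. The genes described here are 8 members of that system: the hormone-converting enzymes Hsd11b1 and Hsd11b2 with their cofactor enzyme H6pd, the receptors Nr3c1 and Nr3c2, and the response genes Fkbp5, Sgk1 and Tsc22d3. They were chosen by gene symbol, as 8 of the 24421 gene rows, with the KO against Control fold changes of these libraries already known. The fold changes of the 8 genes are therefore given as a description, with no test of their own.

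The 4 KO libraries came from C57BL/6 mice with Otp-Cre, homozygous floxed Cic (Cicflox/flox) and ROSAfsTRAP, and the 4 Control libraries from C57BL/6 mice with Otp-Cre and ROSAfsTRAP alone. Both groups thus carried the Cre driver and the Cre-dependent tag on ribosomes, and RNA bound to tagged ribosomes was purified from hypothalamus and medial amygdala. Recombination follows Otp, so Cic is targeted in cells of that lineage, and purified RNA can also hold RNA of other cells. Age, sex, time of day and number of animals per library are not given in the labels, and circulating hormone was not measured in the data used here.

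In rodents the circulating glucocorticoid is corticosterone. In the endoplasmic reticulum, HSD11B1 turns the inert keto form back into corticosterone, using NADPH that H6PD makes there, whereas HSD11B2 runs the inactivating reaction. The hormone binds the glucocorticoid receptor, encoded by Nr3c1, and with higher affinity the mineralocorticoid receptor, encoded by Nr3c2. In the hypothalamus, corticosterone acts through the glucocorticoid receptor to restrain the stress axis.

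The floxed gene itself, Cic, had 44.9, 34.5, 59.3 and 37.5 CPM (the usual depth-normalised gene count, here on TMM-scaled library sizes) in KO replicates 1 to 4, against 103, 72.4, 101 and 101 CPM in Control replicates 1 to 4. Its groups did not overlap. The KO libraries held 33223878 to 49587839 gene counts and the Control libraries 38171319 to 57300362 (exact two-sided permutation p = 0.514, n = 4 each, where the smallest p the design allows is 0.0286). KO replicate 2 stood apart by pituitary hormone genes, with growth hormone (Gh) at 1465 CPM against 0 to 2.62 CPM in the other KO libraries and at most 0.0529 CPM in Control. Control replicate 4 stood apart by the choroid plexus gene Ttr, with 519 CPM against 3.83 to 60.0 CPM in the other Control libraries. With both libraries left out, a choice made after seeing the data, the log2 fold changes described below were 0.99 for Hsd11b1, 0.06 for H6pd, 0.09 for Nr3c1, -0.16 for Nr3c2, -0.49 for Fkbp5, 0.03 for Sgk1 and -0.18 for Tsc22d3, and none of the 7 genes was called.

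The promoter of Hsd11b1, the gene of the 8 that differed most, is shown because it holds a match to the DNA motif of Capicua, the repressor that Cic encodes. The window is RefSeq sequence (GRCm38.p6), minus strand, chr1:193242311-193242610, from 250 bases before to 50 bases after a transcription start. Capitals mark the match.

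Hsd11b1: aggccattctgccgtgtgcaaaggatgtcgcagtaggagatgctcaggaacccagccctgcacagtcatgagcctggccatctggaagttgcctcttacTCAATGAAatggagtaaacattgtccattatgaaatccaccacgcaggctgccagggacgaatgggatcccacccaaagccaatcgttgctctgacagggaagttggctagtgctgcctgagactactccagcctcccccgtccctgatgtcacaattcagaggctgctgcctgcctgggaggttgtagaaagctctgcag

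A promoter window of Sgk1 is shown in part because it holds an exact glucocorticoid response palindrome. The stretch lies on the plus strand of GRCm38.p6 at chromosome 10, with the palindrome (capitals) from 21993701 to 21993715, which is 189 to 175 bases before one of the annotated Sgk1 starts.

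Sgk1: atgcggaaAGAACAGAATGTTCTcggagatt

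The windows were searched on both strands for the 4 octamers known for Capicua, TCAATGAA, TCAATGGA, TGAATGAA and TGAATGGA. Of 13 windows for 6 of the 8 genes (Hsd11b1, H6pd, Nr3c2, Fkbp5, Sgk1 and Tsc22d3), 1 held an octamer, TCAATGAA in Hsd11b1, 151 to 144 bases before the start. Of all 32851 promoter windows, 3.84% held at least 1 of the 4 octamers and 0.749% held TCAATGAA. The half-site of the glucocorticoid response element, AGAACA, stood in 5 of the 13 windows, those of H6pd, Tsc22d3 and Sgk1, and in 19.0% of all windows. The full palindrome joins AGAACA to its reverse complement TGTTCT across any 3 bases, so each exact palindrome also holds half-sites. It occurred exactly in 3 of the 32851 windows, 1 of them the Sgk1 window shown. With up to 2 mismatches over its 12 fixed positions it occurred in 1.84% of all windows and in 2 of the 13, both of Sgk1. A match describes the letters of a window and not binding, and no binding data were used here.

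Among the enzymes, Hsd11b1 was the gene whose libraries separated by genotype. It had 13.9, 22.7, 12.3 and 24.8 CPM in KO replicates 1 to 4, against 10.1, 8.87, 6.38 and 6.42 CPM in Control replicates 1 to 4. Each KO library lay above each Control library, and among the KO libraries replicates 2 and 4 were above replicates 1 and 3. The means were 18.4 ± 6.26 CPM in KO and 7.96 ± 1.87 CPM in Control (SD, n = 4 each), a 2.31-fold difference (log2 fold change 1.21, SE 0.29). It was 1 of the 40 genes called at an edgeR adjusted p of 0.05 among 15438 tested, which is 0.259% of them. Of the 8 genes 7 passed the filter on low counts, and Hsd11b1 was the 1 called, also at an unadjusted p of 0.05, which 10.6% of all genes passed. It was also the 1 of the 7 with all KO libraries above all Control libraries, as were 3.01% of all tested genes, and 0 of the 7 had all KO libraries below, as had 2.91%. Because the fold changes were known when the genes were chosen, these counts are no support for a change. The log2 fold change stayed between 0.99 and 1.36 over 17 alternative analyses and the call held in 11 of them. The call ended without KO replicate 2 (1.08), KO replicate 4 (1.02), Control replicate 2 (1.26), Control replicate 3 (1.12) or Control replicate 4 (1.12), and without KO replicate 2 and Control replicate 4 together (0.99).

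**Figure D1:**
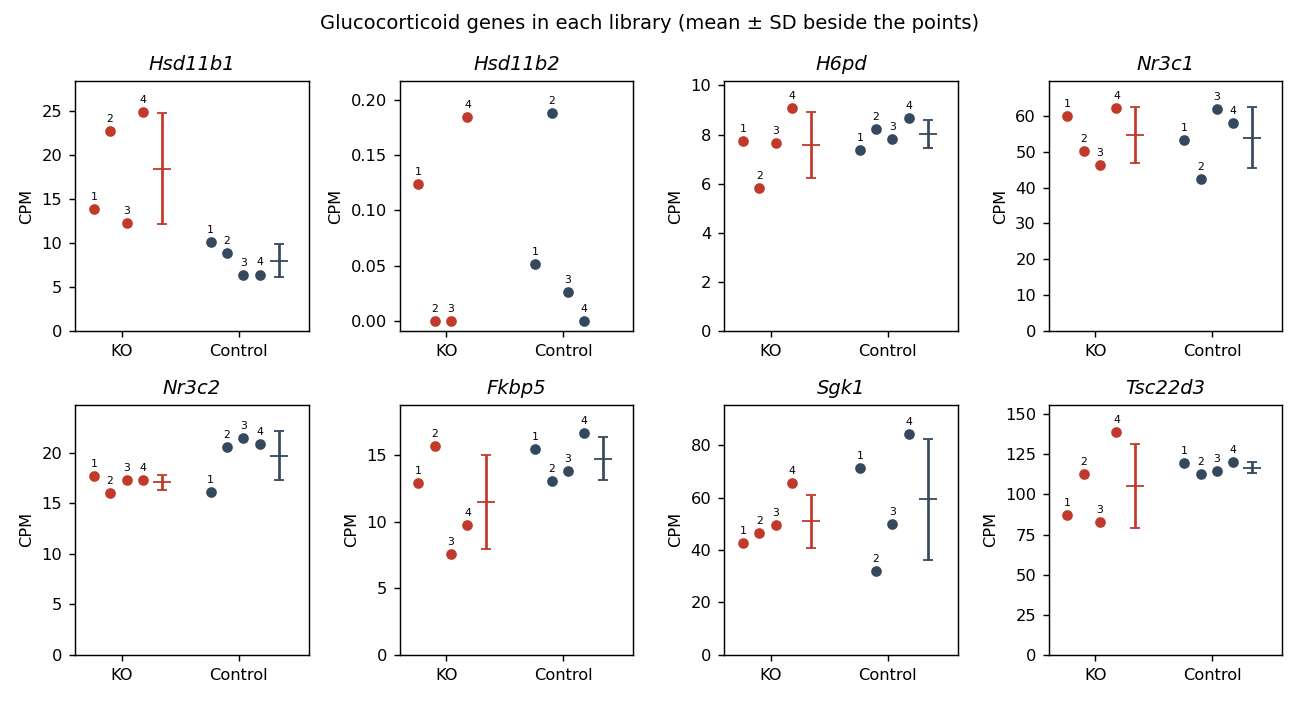
CPM of each of the 8 genes (1 panel each, own axis) in the 4 KO libraries (red) and the 4 Control libraries (dark), numbered by replicate, with mean ± SD beside the points except for Hsd11b2, which is near 0. Hsd11b1 is the panel without overlap between the groups, at 12.3 to 24.8 CPM (KO) and 6.38 to 10.1 CPM (Control).

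Hsd11b1 (ENSMUSG00000016194.14) lies on the minus strand of chromosome 1 from 193221634 to 193264075 (GRCm38). The laminin gene Lamb3 spans it on the opposite strand but shares 0 exon bases with it in the GENCODE annotation, and Lamb3 had 3.91 ± 0.948 CPM in KO and 3.93 ± 1.21 CPM in Control (SD, n = 4 each). The antisense gene 4930570N18Rik overlaps the end of Hsd11b1, and Gm38118 lies within Hsd11b1 on the same strand. Exon bases that either shares with Hsd11b1 were not counted. Without strand, 4930570N18Rik reads on any shared bases could not be told apart from those of Hsd11b1. Of the 3 nearest tested genes on each side, chosen by position after the fold change of Hsd11b1 was known, 5 were not called and Camk1g was. Camk1g, a calmodulin-dependent kinase gene 82271 bases away, had 36.4 ± 6.36 CPM in KO and 19.5 ± 2.52 CPM in Control (SD, n = 4 each), with a log2 fold change of 0.90 (SE 0.15, edgeR adjusted p = 0.00735, higher in KO with no overlap). That call ended without Control replicate 2 (edgeR adjusted p = 0.0633), without Control replicate 4 (0.0661) and without KO replicate 2 and Control replicate 4 together (0.133), and the adjusted p ranged from 1.51e-05 (DESeq2) to 0.133 over its 17 alternatives. G0s2, a lipase inhibitor gene that lies between them at 8086 bases from Hsd11b1, had 3.31 ± 1.22 CPM in KO and 3.95 ± 0.584 CPM in Control, and its log2 fold change was -0.26 (SE 0.24, edgeR adjusted p = 0.828).

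H6pd (chromosome 4, 149979475 to 150009023, minus strand), which supplies the NADPH for HSD11B1, overlapped between the groups. It had 7.75, 5.81, 7.67 and 9.09 CPM in KO replicates 1 to 4, against 7.36, 8.21, 7.84 and 8.68 CPM in Control replicates 1 to 4. Both the lowest and the highest library were KO (log2 fold change -0.08, SE 0.13, positive in 2 of the 17 alternatives). It was 0.01 without KO replicate 2 and -0.19 without KO replicate 4. The ratio of Hsd11b1 to H6pd, each as CPM per kilobase of merged exons, was 1.97 to 4.81 over the KO libraries and 0.911 to 1.70 over the Control libraries. These ranges did not overlap, and Hsd11b1 alone already separated the groups. The size of the ratio depends on the length assumed, which for Hsd11b1 is 4251 bases of merged exons or 1978 bases in its longest transcript.

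Hsd11b2 (chromosome 8, 105518755 to 105523988, plus strand), the inactivating enzyme, was at the limit of detection. Its counts were 6, 0, 0 and 6 in KO replicates 1 to 4, against 3, 8, 1 and 0 in Control replicates 1 to 4. The sums were 12 counts in KO and 12 in Control, each with an exact 95% Poisson interval of 6.20 to 21.0 counts, which covers counting error only. A library at 0 allows up to 3 counts, equal to 0.0689 CPM in KO replicate 2, 0.0742 CPM in KO replicate 3 and 0.0671 CPM in Control replicate 4. Hsd11b2 did not pass the filter on low counts, so no fold change was fitted.

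Both receptor genes overlapped between the groups. Nr3c1, the glucocorticoid receptor gene (chromosome 18, 39410545 to 39519421, minus strand), had 60.04, 50.1, 46.1 and 62.2 CPM in KO replicates 1 to 4, against 53.4, 42.4, 61.9 and 57.9 CPM in Control replicates 1 to 4. The groups covered nearly the same range, and the log2 fold change of 0.02 (SE 0.16) was below its error and was positive in 13 of 17 alternatives (-0.01 with upper-quartile scaling, and -0.08 to 0.09 with 1 library left out). Nr3c2, the mineralocorticoid receptor gene (chromosome 8, 76899442 to 77245012, plus strand), had 17.7, 16.01, 17.3 and 17.3 CPM in KO replicates 1 to 4, against 16.1, 20.6, 21.4 and 20.9 CPM in Control replicates 1 to 4. Control replicate 1 lay within the KO range and the other 3 Control libraries lay above all KO libraries. The log2 fold change of Nr3c2 was -0.21 (SE 0.10), negative in all 17 alternatives and not called in any. The noncoding gene Gm10649 overlaps its start on the opposite strand, and had 0.547 ± 0.188 CPM in KO and 0.652 ± 0.137 CPM in Control (SD, n = 4 each). Per exon length, the ratio of Nr3c1 to Nr3c2 was 2.69 ± 0.341 in KO and 2.32 ± 0.440 in Control (SD, n = 4 each), so both groups held more reads per kilobase of the glucocorticoid receptor than of the mineralocorticoid receptor.

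The 3 response genes all had a negative fold change and none was called. Fkbp5 (chromosome 17, 28399094 to 28517527, minus strand) encodes a co-chaperone that binds the receptor complex, lowers its affinity for hormone and is itself induced by hormone. It had 12.9, 15.7, 7.60 and 9.73 CPM in KO replicates 1 to 4, against 15.5, 13.1, 13.8 and 16.6 CPM in Control replicates 1 to 4. Its coefficient of variation was 30.9% in KO and 10.9% in Control, against medians of 18.6% and 13.1% for genes within 2-fold of its mean. KO replicates 1, 3 and 4 were below all Control libraries, while KO replicate 2 was within the Control range (log2 fold change -0.36, SE 0.23, and -0.56 without KO replicate 2). Without KO replicate 3 it was -0.21, and over all 17 alternatives it stayed negative and was not called.

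Sgk1 (chromosome 10, 21882184 to 21999903, plus strand) encodes a kinase that acts on ion channels and transporters and is induced through both receptors. It had 42.5, 46.4, 49.7 and 65.5 CPM in KO replicates 1 to 4, against 71.4, 32.1, 49.8 and 84.2 CPM in Control replicates 1 to 4. All KO libraries lay inside the Control range, whose coefficient of variation was 38.8% against a median of 9.10% for the 4216 genes within 2-fold of its mean. The log2 fold change of -0.22 (SE 0.33) was below its error, and leaving out 1 library moved it to between -0.43 (without Control replicate 2) and -0.01 (without Control replicate 4). Removal of KO replicate 4 gave -0.37, removal of Control replicate 1 gave -0.12, and removal of KO replicate 2 and Control replicate 4 together gave 0.03.

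Tsc22d3 (chromosome X, 140539528 to 140600659, minus strand) encodes GILZ, a leucine zipper protein that carries part of the anti-inflammatory action of glucocorticoids. It had 86.9, 113, 82.7 and 139 CPM in KO replicates 1 to 4, against 119, 113, 114 and 120 CPM in Control replicates 1 to 4. The Control libraries were nearly level, with a coefficient of variation of 3.03% against a median of 8.46% for genes within 2-fold of its mean, and the KO libraries spread to both sides of them (24.7% against 13.7%). The log2 fold change of -0.15 (SE 0.17) was below its error and negative in all 17 alternatives. It was -0.32 without KO replicate 4, -0.05 without KO replicate 3 and -0.08 without KO replicate 1. Tsc22d3 and Hsd11b1 were both higher in KO replicates 2 and 4 than in KO replicates 1 and 3. Of the 7 fitted genes 2 had a positive fold change, with a median log2 fold change of -0.15, beside 53.8% positive and a median of 0.02 over all genes tested. Without KO replicate 2 and Control replicate 4 the median of the 7 was 0.03, with Hsd11b1, H6pd, Nr3c1 and Sgk1 positive, and it was -0.04 without Control replicate 4 alone.

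**Figure D2:**
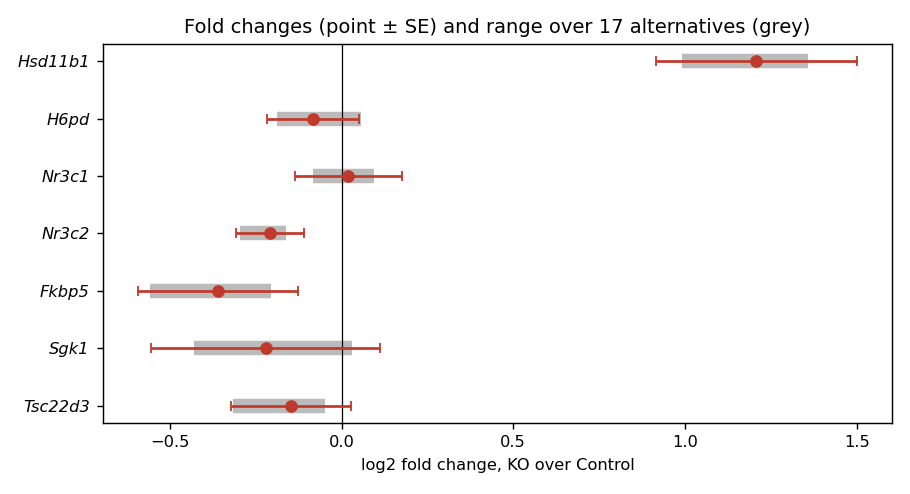
Log2 fold change of KO over Control for the 7 fitted genes (points, bars ± SE of the difference of group means) with the range over 17 alternative analyses in grey. Hsd11b1 stands at 1.21 and the other 6 genes lie between -0.36 and 0.02.

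Levels of different genes were compared as CPM per kilobase of merged exons. Tsc22d3 was the most abundant, with 24.3 ± 5.98 in KO and 26.9 ± 0.814 in Control (SD, n = 4 each). Sgk1 followed with 10.4 ± 2.05 in KO and 12.1 ± 4.70 in Control, then Nr3c1 with 7.11 ± 1.004 in KO and 7.01 ± 1.097 in Control. Sgk1 and Nr3c1 were apart in KO (lowest Sgk1 8.67, highest Nr3c1 8.09) and overlapped in Control. Hsd11b1, at 4.33 ± 1.47 in KO and 1.87 ± 0.440 in Control, stood above Nr3c2 in all 4 KO libraries and below it in all 4 Control libraries (Nr3c2 2.64 ± 0.115 in KO and 3.05 ± 0.381 in Control). In Control, Hsd11b1 overlapped H6pd and Fkbp5. H6pd (1.45 ± 0.257 in KO and 1.53 ± 0.107 in Control) and Fkbp5 (1.21 ± 0.375 in KO and 1.56 ± 0.170 in Control) overlapped in both groups. With the longest transcript in place of merged exons, Hsd11b1 reached 6.22 to 12.6 in KO and 3.23 to 5.13 in Control. Nr3c2 then had 2.71 to 2.99 in KO and 2.72 to 3.62 in Control, so the order of Hsd11b1 and Nr3c2 in Control depends on the transcript length assumed. Some of the overlaps depend on it as well. By the longest transcript, H6pd (1.22 to 1.92 in KO, 1.55 to 1.83 in Control) lay below Fkbp5 (1.97 to 4.07 in KO, 3.38 to 4.31 in Control). In Control, Hsd11b1 then lay above H6pd and still overlapped Fkbp5, and Sgk1 (10.4 to 27.2) lay above Nr3c1 (6.59 to 9.62).

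**Figure D3:**
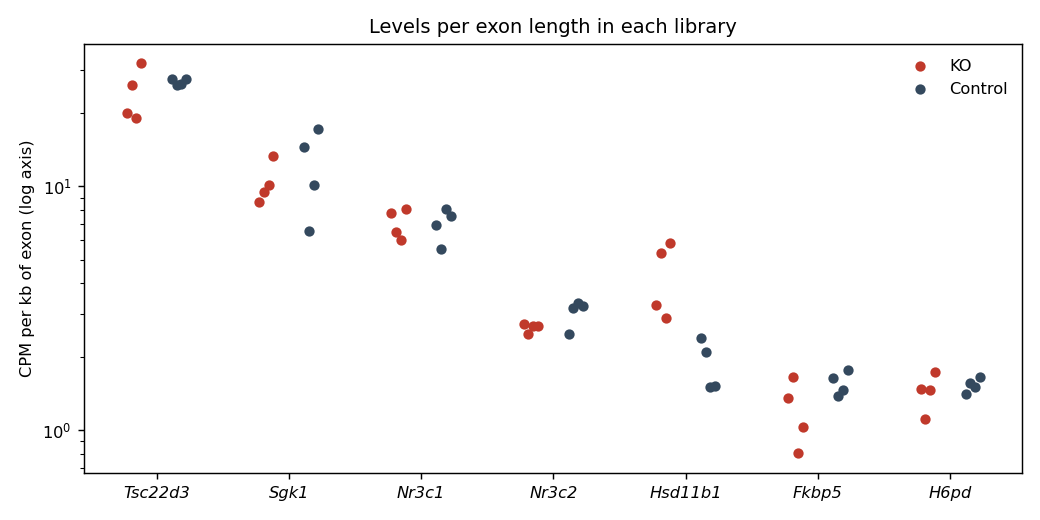
CPM per kilobase of merged exon (log axis) of 7 genes in each KO library (red, left) and each Control library (dark, right), ordered by the Control mean. Hsd11b1 lies at 2.89 to 5.84 in KO and 1.501 to 2.39 in Control, while Tsc22d3 lies at 19.04 or above in every library. Hsd11b2 is left out because libraries at 0 cannot be drawn on a log axis.

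The wider pathway was read from 6 lists of 103 genes, of which 90 were tested. At an edgeR adjusted p of 0.05, 0 of the 90 were called, DESeq2 called 0 as well, and 9 passed an unadjusted p of 0.05 (8 higher and 1 lower in KO, or about the 10.6% seen over all genes). There were 3 genes with all KO libraries above all Control libraries, and 0 genes with all KO libraries below, beside the 3.01% and 2.91% of all tested genes. A log2 fold change above 0 was found for 58 of the 90. The median over all tested genes was 0.02.

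Other glucocorticoid response genes had no common direction, with 11 of 22 positive and a median log2 fold change of 0.01. That median was positive in 13 of 17 alternatives, with -0.02 under upper-quartile scaling, -0.09 without Control replicate 3 and 0.11 without Control replicate 1. Cdkn1a, the cell cycle inhibitor p21, had 34.6 ± 10.7 CPM in KO and 22.9 ± 3.29 CPM in Control (SD, n = 4 each), with a log2 fold change of 0.59 (SE 0.25, edgeR adjusted p = 0.219). Dusp1, a phosphatase of MAP kinases, had 65.2 ± 19.4 CPM in KO and 48.8 ± 7.90 CPM in Control (0.42, SE 0.24, edgeR adjusted p = 0.396). The metallothionein gene Mt2 had 115, 397, 149 and 327 CPM in KO replicates 1 to 4, against 167, 128, 147 and 166 CPM in Control replicates 1 to 4 (0.70, SE 0.44, edgeR adjusted p = 0.597), with KO replicates 2 and 4 high as for Hsd11b1. Ddit4, an inhibitor of mTOR signalling, had 30.2 ± 9.94 CPM in KO and 24.7 ± 1.42 CPM in Control (0.29, edgeR adjusted p = 0.598).

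The chaperones that fold the receptors had 13 of 15 positive and a median of 0.06, which was -0.01 without KO replicate 1 and 0.15 without KO replicate 3. Hspa4 had 159 ± 35.04 CPM in KO and 126 ± 15.6 CPM in Control (SD, n = 4 each; 0.33, SE 0.18, edgeR adjusted p = 0.425). Hsp90aa1, the inducible HSP90 that holds the receptor ready for hormone, had 683 ± 182 CPM in KO and 544 ± 54.0 CPM in Control (0.33, edgeR adjusted p = 0.442), with KO replicate 1 highest at 951 CPM. Stip1, which links HSP70 to HSP90, stood at 0.25 and Stub1, a ubiquitin ligase of chaperone clients, at -0.37 on the log2 scale, neither of them called. Receptor coregulators had 13 of 17 positive and a median of 0.13, which stayed positive under all 17 alternatives (0.07 without KO replicate 1, 0.21 without KO replicate 4). Med14, a Mediator subunit, had 147 ± 16.1 CPM in KO and 118 ± 10.9 CPM in Control (0.32, SE 0.10, edgeR adjusted p = 0.327), and the coactivator Ncoa2 had 153 ± 18.8 CPM in KO and 126 ± 10.4 CPM in Control (0.28, SE 0.11, edgeR adjusted p = 0.406). Both had no overlap between the groups. The acetyltransferase gene Ep300 stood at 0.32 and the corepressor gene Ncor1 at 0.18, neither called.

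Relatives of SGK1 and TSC22D3, listed with regulators and targets of SGK1, had 10 of 15 positive and a median of 0.21. The median stayed positive under all 17 alternatives (0.12 without KO replicate 2, 0.09 without KO replicate 2 and Control replicate 4 together). Nedd4, a ubiquitin ligase, had 360 ± 47.03 CPM in KO and 278 ± 23.6 CPM in Control (SD, n = 4 each; 0.37, SE 0.11, edgeR adjusted p = 0.253) with no overlap. Tsc22d1 stood at 0.25, Wnk1 at 0.21 and Nedd4l at 0.22, none called. The FKBP family around Fkbp5 had 6 of 13 positive and a median of -0.03, which was positive in 4 of 17 alternatives and ranged from -0.07 without KO replicate 4 to 0.12 without KO replicate 3. Fkbp9, a prolyl isomerase of the endoplasmic reticulum, had 9.44 ± 1.69 CPM in KO and 13.5 ± 2.50 CPM in Control (-0.51, SE 0.18, edgeR adjusted p = 0.321), and Fkbp11 (0.53), Fkbp15 (0.26) and Fkbp3 (0.21) were on the positive side without a call. Genes of NADPH supply, steroid efflux and steroid metabolism had 6 of 9 tested positive and a median of 0.09. That median was positive in 14 of 17 alternatives, with -0.01 without KO replicate 2, 0.21 without KO replicate 3 and -0.11 without KO replicate 2 and Control replicate 4 together. The NADPH producers Pgd and G6pdx stood at 0.36 and 0.18, the steroid reductase gene Srd5a1 at 0.22 and the efflux pump gene Abcb1b at 0.50, none called. The 3 negative genes were Abcb1a (also an efflux pump gene, -0.61), Pgls (-0.12) and Slc37a4 (-0.05). Both pump genes were low, with means over all libraries of 1.46 CPM (Abcb1b) and 0.701 CPM (Abcb1a).

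**Figure D4:**
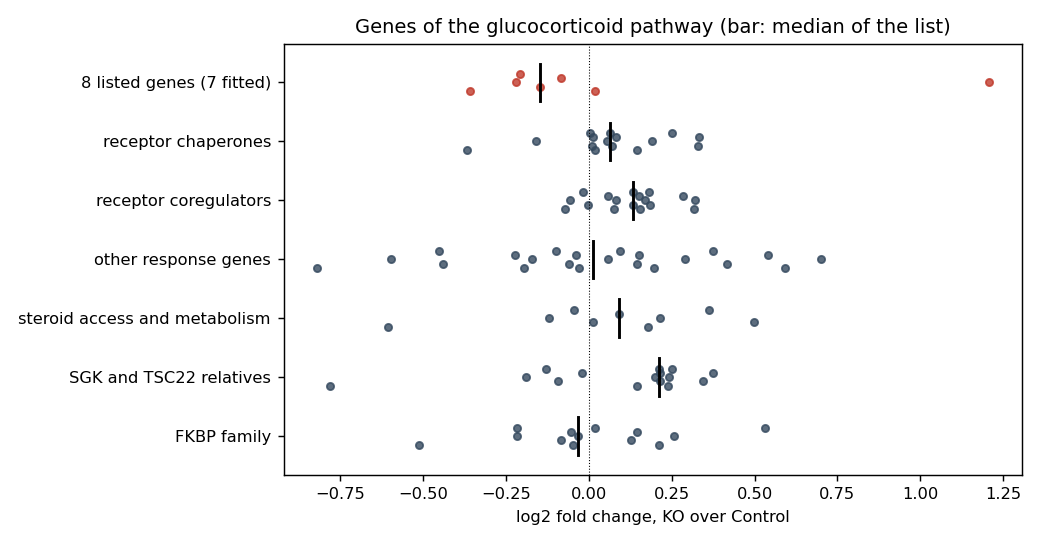
Log2 fold change of KO over Control for each tested gene of the 8 listed genes (red, 7 fitted) and of 6 pathway lists (dark), with a bar at each median. Hsd11b1 at 1.21 lies beyond all genes of the 6 lists, whose medians run from -0.03 to 0.21. The 8 genes and the lists were chosen with earlier results of these data known, so this position is a description only.

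The genes most like Hsd11b1 over the 8 libraries, by the root mean square difference of log2(CPM + 0.5) after centring each gene on its own mean, were Ucn3 (0.29), Papss2 (0.32) and Vgf (0.32), out of 9369 genes of at least 10 CPM. Ucn3 encodes the stress peptide urocortin 3, Papss2 an enzyme that makes the sulfate donor, and Vgf a secreted neuropeptide precursor. For Fkbp5 the nearest were Adcy6 (0.10), Sac3d1 (0.12) and Lrrk2 (0.13), and for Sgk1 they were Lrrtm1 (0.13), Rasgrp1 (0.16) and Slitrk6 (0.18). For Tsc22d3 they were Atp6v0b (0.07), Emc7 (0.08) and Nde1 (0.08). The receptor Nr3c1 was nearest to Acad9, Snrpb and Mrps22 (0.04 to 0.07) and Nr3c2 to Zfp955b, Dusp3 and St6galnac4 (0.08 to 0.09). These likenesses describe 8 libraries that share 2 genotypes.

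In purified bulk RNA, fewer cells of a type and less RNA per cell cannot be told apart, and RNA of several other cell types was present. Summed neuronal markers were 11995 to 16068 CPM over the KO libraries and 11561 to 13792 CPM over the Control libraries. Snap25 made up most of each sum, at 10157 to 14351 CPM (KO) and 9942 to 12083 CPM (Control). The Otp-lineage genes summed to 221 to 360 CPM (KO) and 213 to 289 CPM (Control). Most of that sum was Arnt2, at 165 to 271 CPM (KO) and 174 to 232 CPM (Control). Otp itself was at 2.69 to 8.55 CPM (KO) and 2.28 to 5.01 CPM (Control). The 6 Otp-lineage genes had a median log2 fold change of 0.47. Of these, 2 (Sim1 and Nhlh2) were higher at an edgeR unadjusted p of 0.05 (10.6% of all genes, either direction). Nhlh2 also had all KO libraries above all Control libraries (3.01%). The 14 oligodendrocyte markers summed to 1774, 3254, 2400 and 2936 CPM in KO replicates 1 to 4, against 3569, 2786, 3164 and 3494 CPM in Control replicates 1 to 4, and all 14 had a negative fold change (median -0.38). Of the 14, 2 fell at the edgeR adjusted p that 0.259% of all genes passed in either direction, 9 were lower at an unadjusted p of 0.05 (10.6% of all genes, either direction) and 5 had all KO libraries below all Control libraries (2.91%). Fkbp5, Sgk1 and Tsc22d3 are also expressed by glia. KO replicates 1 and 3, with the 2 lowest oligodendrocyte sums, also had the 2 lowest Tsc22d3 values. The 2 lowest Fkbp5 values were in KO replicates 3 and 4 (7.60 and 9.73 CPM), and the lowest Sgk1 value in Control replicate 2 (32.1 CPM). The part of glial RNA in the fold changes of Fkbp5, Sgk1 and Tsc22d3 was not tested. Negative fold changes were also found for 7 of 10 astrocyte, 9 of 10 microglial, 6 of 10 endothelial and mural and 7 of 8 ependymal markers, and positive ones for 6 of 6 Otp-lineage genes and 6 of 8 neuronal markers, with no call in these lists. Astrocyte markers summed to 884, 1376, 1033 and 1218 CPM in KO replicates 1 to 4, against 1431, 1089, 1259 and 997 CPM in Control replicates 1 to 4. Microglial markers summed to 30.4, 43.9, 24.1 and 40.6 CPM in KO replicates 1 to 4, against 68.4, 23.97, 30.3 and 65.3 CPM in Control replicates 1 to 4. Ependymal markers summed to 31.7, 48.5, 33.97 and 44.5 CPM in KO replicates 1 to 4, against 51.01, 47.02, 39.7 and 56.2 CPM in Control replicates 1 to 4. Endothelial and mural markers summed to 8.80 to 27.9 CPM (KO) and 10.6 to 42.0 CPM (Control). Globin genes (4 of the 5 blood markers) were at 0 in every library. Immediate early genes, which respond to handling, summed to 159 to 207 CPM (KO) and 150 to 270 CPM (Control). In Control they were highest in replicates 1 and 4, as Sgk1 was. So were the neuronal, oligodendrocyte, microglial, ependymal, pituitary, and endothelial and mural sums, but not the astrocyte, choroid plexus, blood or Otp-lineage sums. Control replicate 2, lowest for Sgk1, was also lowest in Control for the immediate early, neuronal, oligodendrocyte and microglial sums. The part of any of these in the values of Sgk1 was not tested.

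For Hsd11b1, the choroid plexus markers summed to 36.7, 191, 62.6 and 138 CPM in KO replicates 1 to 4, against 14.2, 75.9, 14.9 and 543 CPM in Control replicates 1 to 4. Among the KO libraries this sum was higher in replicates 2 and 4 than in 1 and 3, as Hsd11b1 was. So were the oligodendrocyte, astrocyte, microglial and ependymal sums. The choroid plexus sum in KO was mostly Ttr, at 19.5, 177, 50.2 and 125 CPM in replicates 1 to 4. Folr1 and Kcne2, at most 1.11 CPM in KO, were also higher in KO replicates 2 and 4. Kl (8.66, 8.50, 6.80 and 5.95 CPM) and Clic6 (7.67, 4.82, 4.95 and 4.53 CPM) were not. Control replicate 4, with the highest choroid plexus sum, had Hsd11b1 at 6.42 CPM. The part of RNA from any of these cells in the Hsd11b1 values was not tested. The 5 pituitary markers summed to 1737 CPM in KO replicate 2, to 1.90 to 8.99 CPM in the other KO libraries and to 0.688 to 6.93 CPM in Control. The part of pituitary RNA in the Hsd11b1 values was not tested beyond leaving out KO replicate 2, which gave a log2 fold change of 1.08 and no call.

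**Figure D5:**
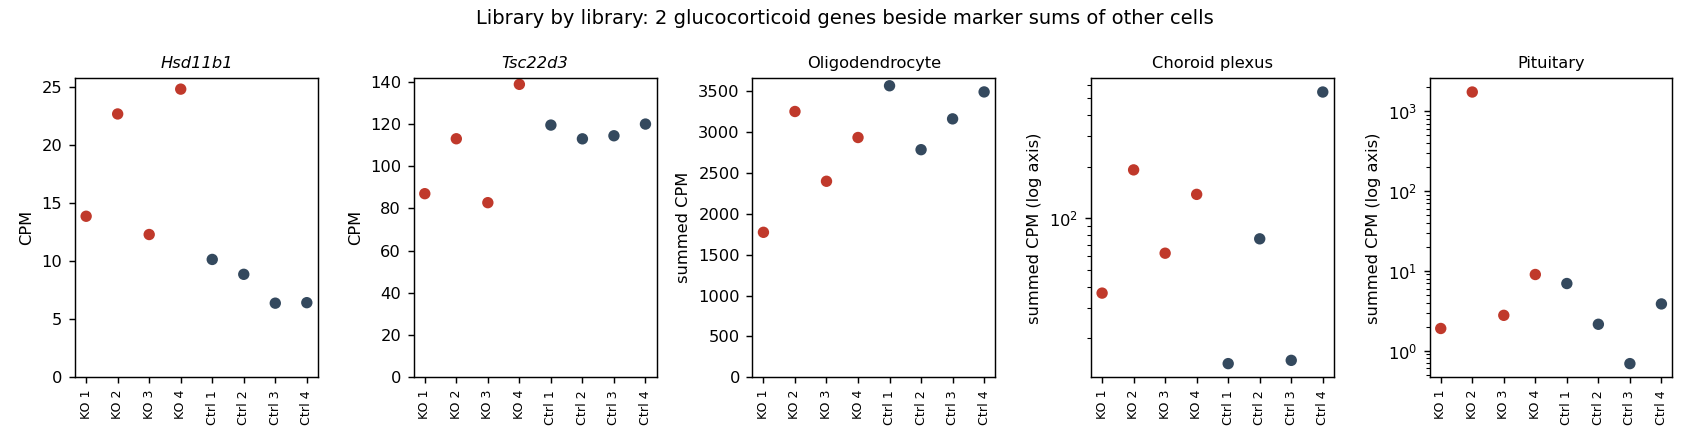
CPM of Hsd11b1 and Tsc22d3 and summed CPM of oligodendrocyte, choroid plexus and pituitary markers in each KO (red) and Control (dark, Ctrl) library, the last 2 panels on a log axis. KO replicates 2 and 4 are the higher KO libraries for Hsd11b1, and Control replicate 4 has the highest choroid plexus sum, 543 CPM, with Hsd11b1 at 6.42 CPM.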

How the data were processed

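The deposited tables hold raw read counts for each gene symbol. The submitters' processing notes name TopHat2 2.0.9, HTSeq, DESeq2 and the build mm10, whereas annotation, strand setting and filters were not given in the sources used here. RNA was amplified from 10 ng with no molecular identifiers, per the labels' protocols, so amplified copies count as reads. Rows for spike-ins and for HTSeq's own counters entered neither the library sizes nor the tests. Non-unique alignments were 69.2% to 81.9% of all records in KO and 63.3% to 74.1% in Control.

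From these counts all genes were fitted with edgeR 4.0.16 in R 4.3.3 (filterByExpr with minimum count 10 and minimum total 15, TMM, robust quasi-likelihood test, Benjamini-Hochberg over all genes, threshold 0.05), with DESeq2 1.42.0 as an alternative. CPM uses TMM library sizes, and SE is that of the difference of group means of log2(CPM + 0.5). Replicates are numbered in the labels, with no statement that they are separate animals, so errors measure the spread between these samples. No library repeats another: chi-square divided by its degrees of freedom was 27.2 or more in each of 28 pairs. Exon lengths and positions come from GENCODE M21 (GRCm38), promoters from RefSeq (GRCm38.p6). Genes named are the 8 members and Cic, up to 4 genes of smallest p per pathway list, marker genes, pattern neighbours and genes flanking Hsd11b1. The members, lists and rules were chosen with earlier results of these data known. Alternatives were other scalings, no filter, DESeq2, a fit that is not robust, Rn45s left out, a replicate block, each library left out, and, chosen after seeing the data, KO replicate 2 and Control replicate 4 left out together.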

Additional observations from a re-analysis of the deposited data

Results flagged for a closer look

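Of 56 groups of 4 libraries examined, 5 held a library far from the other 3. Chance gives this in about 1 of 20 groups if values are independent and normally spread. These groups, which include marker sums and related library measures, need not meet that condition. Nr3c2 was 16.1 CPM in Control replicate 1, against 20.6 to 21.4 CPM in the other Control libraries. Cic was 72.4 CPM in Control replicate 2, against 101 to 103 CPM in the others. Pituitary markers summed to 1737 CPM in KO replicate 2, against 1.90 to 8.99 CPM in the other KO libraries. Choroid plexus markers summed to 543 CPM in Control replicate 4, against 14.2 to 75.9 CPM in the others. Spike-in counts were 0.395% of gene counts in KO replicate 3, against 0.0569% to 0.0739% in the other KO libraries and 0.299% to 0.522% in Control. KO replicate 3 was thus within the Control range, and the other KO libraries were below all Control libraries. Between the groups, the exact two-sided permutation p of the spike-in share was 0.0857 (n = 4 each). Each library was left out in turn, and KO replicate 2 and Control replicate 4 also together; beyond that their part in the results was not tested.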

How the results depend on the processing

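The number of genes called, 40, became 26 with total gene counts only, 180 with the DESeq2 Wald test, 65 with the replicate block, 14 to 53 with 1 library left out (the Control libraries 1, 2, 3 and 4 left 19, 17, 26 and 14 genes when each was removed, and removal of the KO library 2 left 26) and 12 without KO replicate 2 and Control replicate 4 together. The number of the 8 genes called, 1, was 0 to 1 with 1 library left out and 0 without those 2 libraries, and 1 under every other alternative. The median log2 fold change of the 7 fitted genes, -0.15, turned to 0.031 without those 2 libraries, and the cause was not tested. In the 6 pathway lists 0 genes were called under each of the 17 alternatives. Hsd11b1 kept a positive fold change under all 17. Deviations of KO and Control libraries with the same number correlated at -0.07 to 0.15. Libraries with unlike numbers were not compared, so these values cannot decide whether the numbers mark pairs. The block moved the log2 fold change of Hsd11b1 to 1.17, with an edgeR adjusted p of 0.00978 against 0.0253 in the main fit. With 4 libraries a group, the fold changes of H6pd, Nr3c1, Sgk1 and Tsc22d3 were smaller than their SE, and Hsd11b2 was too low to compare.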
